A study of Mus musculus with 14 samples.

Results

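The regions described here are 1000-base tiles of the mouse autosomes that stayed highly methylated in every library of a reprogramming experiment. A tile entered if at least 3 CpG positions, with the 2 strands counted apart, were listed in each of 10 bisulfite libraries, and if its read-weighted methylation level was 70% or more in all 10. The tiles were thus chosen by their measured methylation levels. Of 110555 tiles covered in this way, 51875 were at 70% or more in both fibroblast libraries, and 5027 of these met the rule in all 10 libraries. That was 9.69% of the fibroblast-high tiles (95% Wilson interval 9.44% to 9.95%) and 4.55% of all tiles. The other 46848 fibroblast-high tiles, which were under 70% in at least 1 reprogrammed library, served as the comparison. Both sets of tiles are given below as resisting tiles and comparison tiles.

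The libraries came from mouse tail fibroblasts, either labelled AID-null or labelled wildtype. For each of the 2 genotypes there was 1 library of cells reprogrammed for 3 weeks with Oct4, Sox2, Klf4 and cMyc, 3 libraries of clones picked at 2 weeks and taken to 3 weeks, and 1 library of untreated fibroblasts. RNA was sequenced from 4 libraries, the 3-week culture and the fibroblasts of each genotype, with no replicates. The labels do not describe the allele, the strain or age of the animals, how the factors were delivered, or whether the clones of a genotype came from separate cultures. The spread between clones may therefore be technical in part.

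Reduced representation bisulfite sequencing (RRBS) reads CpGs near the cut sites of a restriction enzyme, so a tile holds only the CpGs that fall in sequenced fragments. Most CpGs of a differentiated mammalian cell are methylated, whereas CpG islands at promoters are usually not. Reprogramming to pluripotency rewrites this pattern, and methylation can be lost through the cell divisions, when the maintenance enzyme Dnmt1 fails to copy it, or through oxidation by Tet enzymes. Regions that keep somatic methylation during reprogramming have been studied as a form of epigenetic memory.

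Listed positions numbered 1659832 to 2154007 per library at a median coverage of 82 to 125 reads, and the median read count of a resisting tile was 571 to 685 per library. In RNA, 8 of 8 fibroblast markers were at 1 FPKM or more in all 4 libraries (FPKM, a fragment count corrected for transcript length and library size), and so were 8 of 8 pluripotency markers in both 3-week cultures. Their levels differed between the cultures, with summed FPKM of fibroblast markers of 10126 in the 3-week culture labelled AID-null and 2402 in the wildtype one, and of pluripotency markers of 8292 in the culture labelled AID-null and 9535 in the wildtype one. The summed FPKM of 6 macrophage markers was 308 and 945 in the 3-week culture and fibroblasts labelled AID-null, against 117 and 295 in those labelled wildtype. Of 4 keratinocyte markers 1 to 3 were at 1 FPKM or more in a library, with sums of 2.63 to 51.9 FPKM, and of 4 skeletal muscle markers 0 to 3 were, with sums of 0.22 to 6.89 FPKM. The part of these cell types, fibroblasts included, in the results below was not tested. Genotypes are given below as labelled. Reads of AID-null-labelled clone 1 on chromosome 1 were 1.22 times the median share of the 10 libraries.

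Few resisting tiles held a gene's promoter that could be placed. Promoter windows of RefSeq genes (a fixed stretch around the gene's start, most of it upstream, assembly GRCm38.p6) were placed on the files' mm9 positions by the spacing of their CpGs alone. A resisting tile held a placed window in 5 of 5027 cases (0.0995%, 95% Wilson interval 0.0425% to 0.233%), against 120 of 46848 comparison tiles (0.256%, 0.214% to 0.306%) and 7095 of the 58680 tiles that were not high in both fibroblast libraries (12.1%, 11.8% to 12.4%). Placement needs at least 5 listed positions in the window, which tiles with few listed positions often lack. Among tiles with more than 10 positions, 1 of 448 resisting tiles held a window (0.223%, 0.0394% to 1.25%), against 68 of 6184 comparison tiles (1.1%, 0.868% to 1.39%). The intervals of both shares overlap. Among tiles with 3 to 6 positions the order was the other way, with a window in 3 of 3258 resisting tiles (0.0921%, 0.0313% to 0.27%) and 4 of 28489 comparison tiles (0.014%, 0.0055% to 0.0361%), again with overlapping intervals. The 5 genes are the long noncoding RNA genes 1810018F18Rik, Gm33100, Gm34536, Gm36027 and Gm52186. Long noncoding RNA genes were also among those of the comparison windows.

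Of these windows 3 are printed as examples of methylated promoters that stayed so, and 2 CpG-rich windows of comparison tiles, picked after their values had been seen, follow as examples of methylated promoters that did not. Sequences run 5′ to 3′ on the gene's strand, and capitals mark CpGs that the methylation files list.
Gm52186: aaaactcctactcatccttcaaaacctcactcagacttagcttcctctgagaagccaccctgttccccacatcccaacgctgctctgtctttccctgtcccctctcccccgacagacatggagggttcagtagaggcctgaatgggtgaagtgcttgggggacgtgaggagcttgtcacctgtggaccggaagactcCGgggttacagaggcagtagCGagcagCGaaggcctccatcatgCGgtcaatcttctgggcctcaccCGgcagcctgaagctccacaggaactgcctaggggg
Gm34536: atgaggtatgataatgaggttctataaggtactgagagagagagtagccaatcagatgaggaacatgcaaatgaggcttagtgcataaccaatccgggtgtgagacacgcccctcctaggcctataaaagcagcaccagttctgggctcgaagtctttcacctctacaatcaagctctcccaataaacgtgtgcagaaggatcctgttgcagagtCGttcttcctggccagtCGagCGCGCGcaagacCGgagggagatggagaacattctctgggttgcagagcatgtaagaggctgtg
1810018F18Rik: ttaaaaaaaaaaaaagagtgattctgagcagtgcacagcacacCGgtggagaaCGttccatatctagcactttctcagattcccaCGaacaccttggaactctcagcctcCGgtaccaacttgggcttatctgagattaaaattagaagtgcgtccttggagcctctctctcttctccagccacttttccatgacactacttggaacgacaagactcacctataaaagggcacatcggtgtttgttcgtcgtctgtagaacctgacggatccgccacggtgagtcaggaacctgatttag
Ddx4: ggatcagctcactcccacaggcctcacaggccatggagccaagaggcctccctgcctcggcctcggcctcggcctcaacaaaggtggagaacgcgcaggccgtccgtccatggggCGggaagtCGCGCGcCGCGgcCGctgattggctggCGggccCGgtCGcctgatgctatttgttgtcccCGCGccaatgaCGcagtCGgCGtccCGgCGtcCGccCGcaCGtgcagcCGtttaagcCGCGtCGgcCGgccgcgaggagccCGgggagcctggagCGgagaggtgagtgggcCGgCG
Mael: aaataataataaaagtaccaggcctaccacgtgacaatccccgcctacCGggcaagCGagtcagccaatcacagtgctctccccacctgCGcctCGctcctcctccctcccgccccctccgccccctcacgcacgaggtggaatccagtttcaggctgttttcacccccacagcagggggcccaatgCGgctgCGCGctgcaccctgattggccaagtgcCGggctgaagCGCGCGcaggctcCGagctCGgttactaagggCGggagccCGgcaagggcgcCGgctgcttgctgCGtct
The window of Gm52186 lies at chr15:78440184-78440483 on the minus strand (mm9), that of Gm34536 at chr5:26715574-26715873 on the plus strand, and that of 1810018F18Rik at chr19:58773157-58773456 on the plus strand. The windows of Ddx4 and Mael lie at chr13:113442469-113442768 and chr1:168168826-168169125, both on the minus strand. The resisting windows held 9, 10 and 12 CpGs in this order, against 38 in the window of Ddx4 and 24 in that of Mael. Over all placed windows CpG numbers were alike, with a median of 9 (7 to 12) in the 5 resisting windows and 10 (4 to 42) in 123 comparison windows. The letters TATAAA, searched on both strands, were in 2 of the 5 resisting windows (Gm34536 and 1810018F18Rik) and in 13.6% of 31396 autosomal windows of the same length. A stretch of 42 bases occurred again without overlap in the window of Gm36027. Such a repeat of that length or longer was in 0.299% of autosomal windows.

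The promoter window of Gm34536 read 85.5% and 87.9% methylated in the 3-week cultures labelled AID-null and wildtype, 81.3%, 79.8% and 95.6% in the AID-null-labelled clones, 79.6%, 85.9% and 87.7% in the wildtype clones, and 90.1% and 81.1% in the AID-null-labelled and wildtype fibroblasts. Its levels in reprogrammed cells overlapped those in fibroblasts. The window of Gm52186 read 83.9% and 71.5% in the 3-week cultures labelled AID-null and wildtype, 87.8%, 82.1% and 85.3% in the AID-null-labelled clones, 70.6%, 79.6% and 79.8% in the wildtype clones, and 92.3% and 94.9% in the AID-null-labelled and wildtype fibroblasts. All 8 reprogrammed libraries were below both fibroblast libraries there. The window of Gm33100 fell to 64% in wildtype clone 3, although its whole tile was at 71% in that library. 1810018F18Rik was the only 1 of the 5 genes with an FPKM value, and it was listed at 0 in all 4 RNA libraries.

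The comparison windows ranged widely, and 2 germ line genes were among those that moved far. Ddx4, which encodes the germ cell RNA helicase vasa, read 40.5% and 45.9% in the 3-week cultures labelled AID-null and wildtype, 9.8% to 18% in the AID-null-labelled clones and 17.3% to 26.4% in the wildtype clones, against 89.4% and 92.1% in the AID-null-labelled and wildtype fibroblasts. Mael, which encodes a factor of transposon silencing in the germ line, read 31.8% and 38.9% in the 3-week cultures labelled AID-null and wildtype, 12.2% to 26.7% in the AID-null-labelled clones and 19.2% to 25.2% in the wildtype clones, against 90.6% and 93.2% in the AID-null-labelled and wildtype fibroblasts. Mael was at 73.7 and 15.1 FPKM in the 3-week cultures labelled AID-null and wildtype and listed at 0 in both fibroblast libraries. Ddx4 was at 8.78 and 7.87 FPKM in those cultures, against 19.6 and 4.74 FPKM in the AID-null-labelled and wildtype fibroblasts. Over the 28 comparison windows with 12 or more matched positions, the median level was 12.6% to 32.8% in the clones and 40% to 40.9% in the 3-week cultures, against 87.1% to 87.4% in the fibroblasts. No resisting window had that many matched positions. At 5 to 9 matched positions, which all 5 resisting windows had, the reprogrammed mean minus the fibroblast mean had a median of -12.5 points (-15.2 to -0.18) in the resisting windows and -22.3 points (-76.9 to 32) in 82 comparison windows. Among these, 14 comparison windows and 2 resisting windows were above -10 points. The rule used these levels, so the difference is a description.

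**Figure D1:**
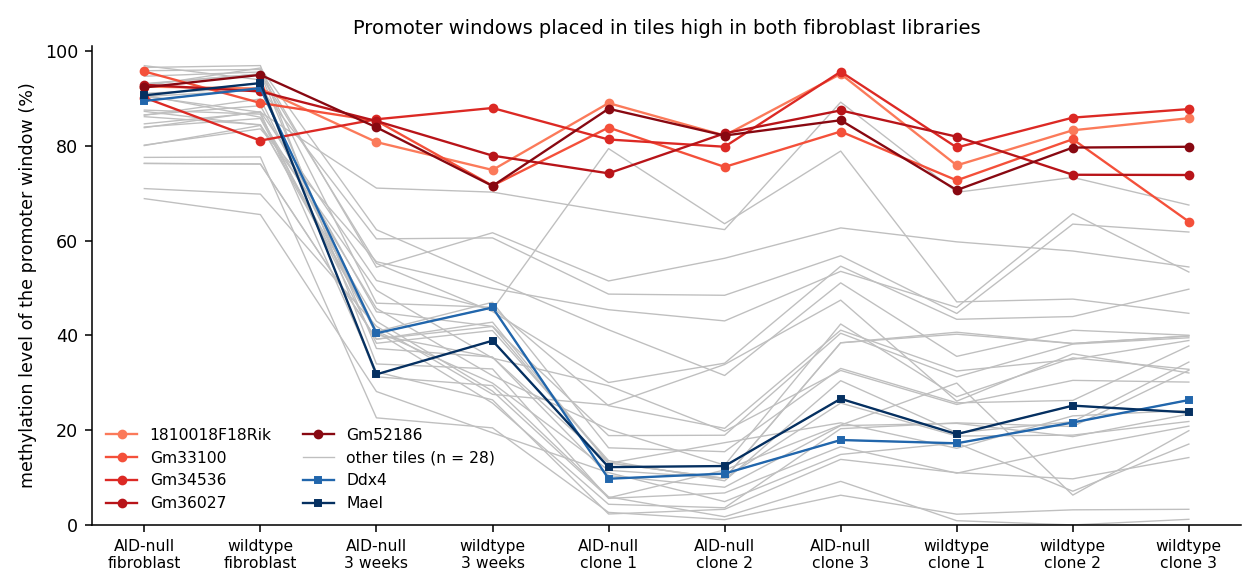
Methylation level (%) of placed promoter windows in the 10 libraries, with 28 of the 123 comparison windows drawn. Red lines are the 5 windows in resisting tiles, grey lines the 28 windows in comparison tiles with 12 or more matched positions, and blue lines Ddx4 and Mael among these. The red lines stay at 64% or more in every library, and the grey lines have medians of 12.6% to 32.8% in the clones. The red windows have 5 to 9 matched positions, so they are not like the grey ones. Comparison windows with 5 to 9 matched positions are not drawn, and their median change from fibroblasts was -22.3 points.

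Remaining at 70% or more did not mean that levels stood still. Values of the resisting tiles are given as a description, because the rule used them. The mean level of the resisting tiles was 85% in the 3-week culture labelled AID-null and 76.4% in the wildtype one. It was 88.4%, 84.5% and 90.5% in the AID-null-labelled clones and 80.5%, 82.3% and 81.9% in the wildtype clones, against 91.1% in the AID-null-labelled and 91.6% in the wildtype fibroblasts. All 8 reprogrammed libraries were below both fibroblast libraries. The mean over the 8 reprogrammed libraries minus that of the fibroblasts was -7.66 percentage points in resisting tiles and -22.5 points in comparison tiles. It was above the fibroblast mean in 415 resisting tiles (8.26%). The comparison tiles averaged 69.8% and 57.7% in the 3-week cultures labelled AID-null and wildtype, 59.9% to 74.5% in the AID-null-labelled clones and 60.2% to 63.3% in the wildtype clones, against 86.3% and 87.2% in the AID-null-labelled and wildtype fibroblasts.

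**Figure D2:**
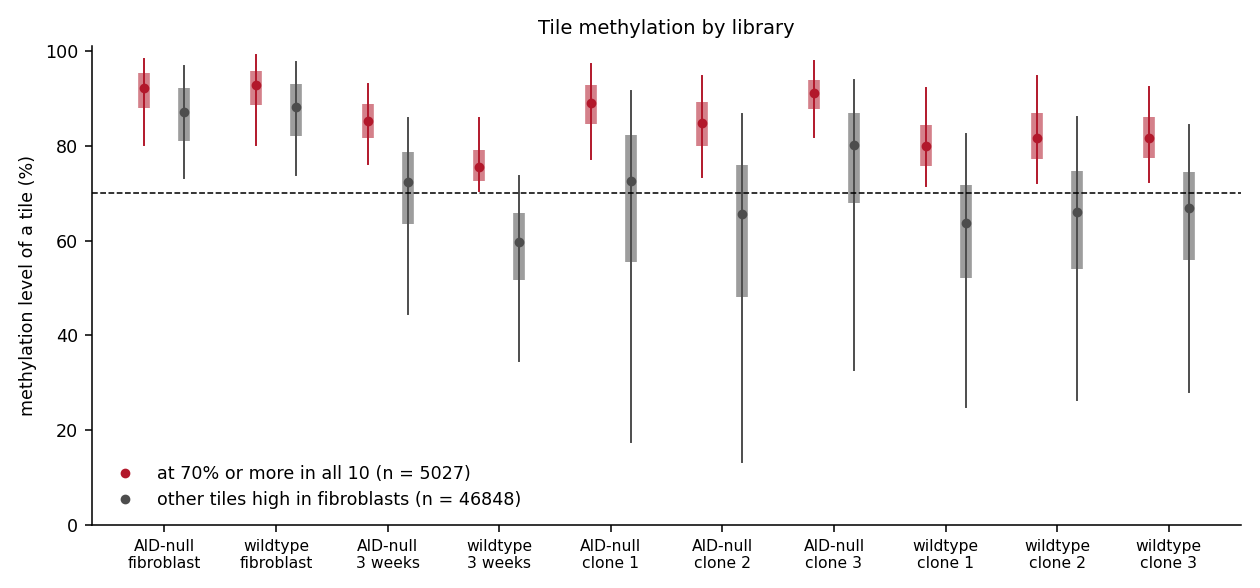
Methylation level (%) of tiles in the 10 libraries, for the 5027 resisting tiles (red) and the 46848 comparison tiles (grey). Points are medians, thick bars the quartiles, thin lines the 5th to 95th percentile, and the dashed line the 70% threshold. The wildtype 3-week culture lies closest to the threshold, with a median of 75.4% in the resisting tiles.

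A fall of 10 points or more from the fibroblast library of the same genotype was met in most resisting tiles of some libraries and few of others. In the 3-week culture labelled AID-null 1301 resisting tiles (25.9%) fell this far, where 38.6% of all tiles and 68.2% of comparison tiles did. In the wildtype 3-week culture it was 3976 (79.1%), where 58.2% of all tiles and 96% of comparison tiles did. In the AID-null-labelled clones 1 to 3 it was 776, 1681 and 391 resisting tiles (15.4%, 33.4% and 7.78%). There 36.8%, 46.2% and 24.9% of all tiles fell, and 60.7%, 76.2% and 42.7% of comparison tiles. In the wildtype clones 1 to 3 it was 2938, 2511 and 2585 (58.4%, 50% and 51.4%). There 50.3%, 46.7% and 46.8% of all tiles fell, and 80.1% to 85.7% of comparison tiles. The rule fixes how far a tile could fall, so nothing is read from these shares against the background. All tiles include those unmethylated in fibroblasts, which had no room to fall.

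One library set most of the boundary. Of the fibroblast-high tiles 61.8% were at 70% or more in the 3-week culture labelled AID-null and 19% in the wildtype one. The share was 45.5% to 74.9% in the AID-null-labelled clones and 36.7% to 45.3% in the wildtype clones. Of the 6527 comparison tiles that were under 70% in a single library, 3982 (61%) were under it in the wildtype 3-week culture. That culture was the lowest library in 49.6% of the resisting tiles. With it left out of the rule, 9169 tiles met it in the other 9 libraries. Conversely, 9867 fibroblast-high tiles (19%) were under 70% in all 8 reprogrammed libraries.

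The threshold fell in a continuous range. Among the fibroblast-high tiles, those at 60% or more in all 10 libraries numbered 19471, at 75% or more 1670, at 80% or more 351, at 85% or more 35 and at 90% or more 2. The lower 95% Wilson bound was at 70% or more in all 10 libraries in 2215 resisting tiles (44.1%), and the upper bound was at 70% or more in all 10 in 4458 comparison tiles. These intervals cover counting error only. Just inside the threshold, tile chr5:10364001-10365000 read 90.9% and 70% in the 3-week cultures labelled AID-null and wildtype, 84.4% to 95% in the AID-null-labelled clones and 75% to 89.3% in the wildtype clones, against 94.8% and 95% in the AID-null-labelled and wildtype fibroblasts. Just outside it, tile chr4:22362001-22363000 read 88.6% and 70% in those cultures, 77.6% to 91.6% in the AID-null-labelled clones and 73.2% to 81.9% in the wildtype clones, against 91.7% and 95.7% in the AID-null-labelled and wildtype fibroblasts. Both rounded to the threshold in the wildtype culture.

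The 2 tiles at 90% or more in all 10 libraries lay on chromosomes 13 and 6. Tile chr13:90569001-90570000 read 91.5% and 92.1% in the 3-week cultures labelled AID-null and wildtype, 100%, 100% and 94.9% in the AID-null-labelled clones, 96.6%, 100% and 90.6% in the wildtype clones, and 93% and 100% in the AID-null-labelled and wildtype fibroblasts. Tile chr6:143849001-143850000 read 91.5% and 93.7% in those cultures, 91.4%, 94.9% and 98.4% in the AID-null-labelled clones, 96.6%, 90.2% and 100% in the wildtype clones, and 99.5% and 95.2% in the AID-null-labelled and wildtype fibroblasts. In both tiles the reprogrammed and fibroblast values overlapped. They held 3.2 and 3.4 positions per library on average, with median read counts of 224 and 218 per library. Of the 5 highest tiles by lowest level, 4 lay on chromosome 13, which held 267 of the 5027 resisting tiles. What genes or repeats these tiles hold was not analysed here.

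Some resisting tiles were higher after reprogramming. The largest such difference was in tile chr3:153958001-153959000, which read 80.4% and 77.7% in the 3-week cultures labelled AID-null and wildtype, 84.5% to 90.6% in the AID-null-labelled clones and 81.7% to 94.9% in the wildtype clones, against 72.6% and 70.3% in the AID-null-labelled and wildtype fibroblasts. Every reprogrammed library was above both fibroblast libraries. The largest difference in the other direction was in tile chr7:25212001-25213000, which read 74.3% and 71.2% in those cultures, 73% to 86.6% in the AID-null-labelled clones and 72.7% to 79.6% in the wildtype clones, against 96.4% and 100% in the AID-null-labelled and wildtype fibroblasts. There, every reprogrammed library was below both.

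Within resisting tiles the single positions were mostly high as well. The share of listed positions at 70% or more was 73.1% in the wildtype 3-week culture and 80.3% to 95% in the other libraries. Every listed position was at 50% or more in every library in 2047 resisting tiles (40.7%), and at 70% or more in 128. At the other end, 15 positions in 13 resisting tiles were under 20% in all 10 libraries, inside tiles that were methylated around them.

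Resisting tiles held slightly fewer listed positions than comparison tiles. They held a median of 5 listed positions per library, against 5.2 in comparison tiles and 6.2 in all tiles, and a mean of 5.93 against 6.51 in comparison tiles. The mean was lower in resisting tiles on 18 of 19 autosomes, and the median on 13, with 3 equal and 3 higher. Listed positions spanned a median of 280 bases in resisting tiles and 377 in comparison tiles, so the count does not measure CpG density. Of fibroblast-high tiles with 3 to 4 positions 10.7% were resisting tiles (95% Wilson interval 10.2% to 11.2%), and of those with more than 10 to 15 positions 7.63% were (6.89% to 8.44%). Of those with more than 30 positions, 2 of 205 were (0.976%, 0.268% to 3.49%). The decline began above about 10 positions, since those with more than 6 to 10 positions were at 9.79% (9.3% to 10.3%). Among tiles with a fibroblast mean of 90% or more the share was 16.7% at 3 to 4 positions and 2.41% above 30. The 2 resisting tiles with the most listed positions were chr12:30687001-30688000, with 57.9 positions per library, and chr7:46792001-46793000, with 34.8. The tile on chromosome 12 read 78.7% and 72.5% in the 3-week cultures labelled AID-null and wildtype, 74.9% to 89.1% in the AID-null-labelled clones and 74.5% to 79.5% in the wildtype clones, against 96.6% and 96.5% in the AID-null-labelled and wildtype fibroblasts. All reprogrammed libraries were below both fibroblast libraries there too.

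The share also went with the level in fibroblasts. Of tiles with a fibroblast mean of 70% to 75%, 0.925% were resisting tiles, against 21.7% of tiles above 95%. Part of this follows from the rule, since a tile near the threshold in fibroblasts leaves it on a small fall.

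The sets also differed in where they lay along the chromosomes. As a mark of CpG islands, 11361 tiles with at least 30 positions and under 10% methylation in both fibroblast libraries were taken, and are called CpG-dense unmethylated tiles. The nearest one lay a median of 133 kb from a resisting tile and 53 kb from a comparison tile. Resisting tiles were the farther ones on 19 of 19 autosomes. Of fibroblast-high tiles at 1 to 2 kb from such a tile 1.52% were resisting tiles (95% Wilson interval 0.922% to 2.49%). The share was 4.89% at 11 to 20 kb, 9.12% at 51 to 100 kb and 21% beyond 500 kb (19.8% to 22.3%). Mean fibroblast levels of these bins were alike, at 86.5% to 87.4%. Among tiles with a fibroblast mean of 90% or more the share was 3.22% at 1 to 2 kb and 34% beyond 500 kb. Among tiles with 6 or fewer positions it was 1.83% and 19.4%.

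The same order was met in each of the 8 reprogrammed libraries. Fibroblast-high tiles beyond 200 kb averaged 74.9% in the 3-week culture labelled AID-null, against 66.7% in those within 10 kb. In the wildtype 3-week culture tiles beyond 200 kb averaged 63.8%, against 54% within 10 kb. In AID-null-labelled clone 1 they averaged 76.1% against 58.3%, and in wildtype clone 1 67.2% against 55.3%. Over the 8 reprogrammed libraries the tiles beyond 200 kb were higher by 12.8 ± 3.38 points (SD, n = 8 libraries), in 8 of 8. In the AID-null-labelled and wildtype fibroblasts the difference was -0.021 and 0.22 points. Resisting tiles were 1952 of 10678 tiles beyond 200 kb (18.3%) and 194 of 6778 within 10 kb (2.86%). This distance was chosen as a measure after the data had been seen, and the rule used the same levels. The libraries share the same tiles, so the difference describes these libraries and not independent regions.

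**Figure D3:**
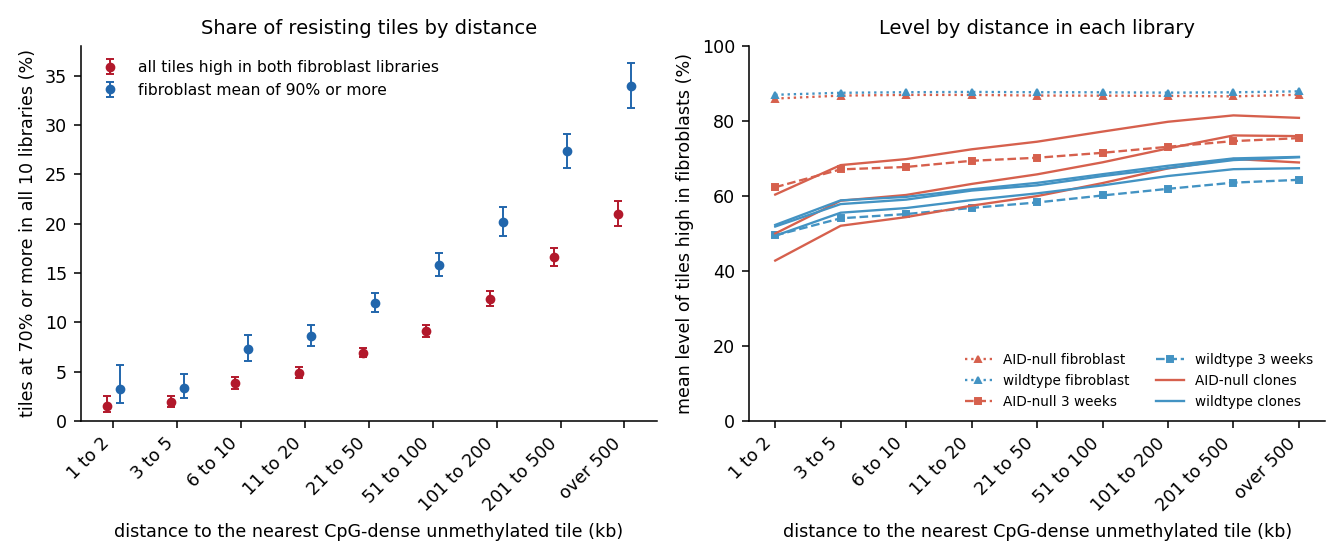
Left, share (%) of fibroblast-high tiles that were at 70% or more in all 10 libraries, by distance (kb) to the nearest CpG-dense unmethylated tile, for all such tiles (red) and those with a fibroblast mean of 90% or more (blue), with 95% Wilson intervals. Right, mean level (%) of fibroblast-high tiles by the same distance, 1 line per library. Fibroblast lines are flat, in tiles chosen at 70% or more in both fibroblast libraries. The share of resisting tiles runs from 1.52% at 1 to 2 kb to 21% beyond 500 kb.

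The autosomes differed in the same direction. Resisting tiles made up 13.6% of the fibroblast-high tiles of chromosome 3 (95% Wilson interval 12.3% to 15%), 12.8% on chromosome 13 and 12.2% on chromosome 14, against 7.82% on chromosome 19, 7.78% on chromosome 17 and 5.56% on chromosome 11 (4.86% to 6.36%). The intervals of chromosomes 3 and 13 overlap, and that of chromosome 11 lies below those of all other autosomes. Chromosome 3 had 3.28 CpG-dense unmethylated tiles per Mb and chromosome 11 had 8.22. Across the 19 autosomes, the share and the number of such tiles per Mb had a Pearson r of -0.92 and a Spearman rho of -0.92, and r was -0.95 without the 2 chromosomes farthest from the median density. The chromosomes share libraries and depth, and this is given as a description.

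**Figure D4:**
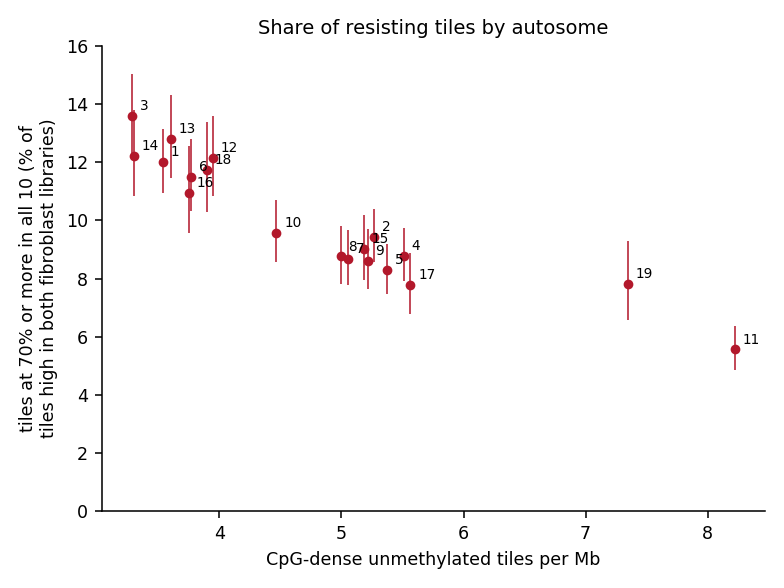
Share (%) of fibroblast-high tiles that were resisting tiles, with 95% Wilson intervals, against the number of CpG-dense unmethylated tiles per Mb, for the 19 autosomes (numbers beside points). Chromosome 3 stands at 13.6% and chromosome 11 at 5.56%.

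Resisting tiles tended to lie beside each other, although few covered neighbours existed. A directly adjacent fibroblast-high tile was itself a resisting tile in 256 of 821 cases (31.2%) beside a resisting tile, against 565 of 9063 (6.23%) beside a comparison tile. Pairs were counted from each of their tiles, so a pair of a resisting and a comparison tile enters both shares. At 2 to 5 kb the shares were 22.6% and 5.97%, at 11 to 50 kb 12.3% and 6.28%, and beyond 200 kb, up to 1000 kb, 9.83% and 6.9%. Of the resisting tiles 4782 (95.1%) had no adjacent resisting tile. There were 117 runs of 2 or more, and the longest was 4 tiles, at chr10:82875001-82879000. Averaged over its tiles, this run read 92.2% and 83.7% in the 3-week cultures labelled AID-null and wildtype, 88.7% to 95% in the AID-null-labelled clones and 82.9% to 84.9% in the wildtype clones, against 97.3% and 98% in the AID-null-labelled and wildtype fibroblasts. Runs of 3 tiles lay at chr12:89333001-89336000 and chr12:5064001-5067000.

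Tiles adjacent to resisting tiles were more methylated as well, also where they were themselves outside the fibroblast-high set. In 200 such tiles beside resisting tiles the mean level was 48.8% to 68.4% over the 8 reprogrammed libraries, against 32.9% to 45.6% in 4279 such tiles beside comparison tiles. The difference was 19.9 ± 3.39 points (SD, n = 8 libraries), higher in 8 of 8 (exact two-sided sign-flip permutation test over libraries, p = 0.00781, the smallest possible, Benjamini-Hochberg adjusted over 4 measures 0.0104). In the AID-null-labelled and wildtype fibroblasts the difference was 7.99 and 7.5 points. Taken as a change from the fibroblast library of the same genotype, tiles beside resisting tiles moved by -1.18 to 18.6 points and those beside comparison tiles by -8.94 to 3.81 points. The mean change beside resisting tiles was above 0 in 7 of 8 libraries, all but the wildtype 3-week culture. The libraries share the same adjacent tiles, so the test covers the spread between libraries only. These tiles were grouped by their neighbours' levels in the same libraries and were not matched for distance to CpG-dense unmethylated tiles. No conclusion is therefore drawn from the test.

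Strand differences come from the same reads that chose the tiles and are given as a description. The mean difference between the 2 strands of a CpG was 7.91 to 15.8 points in resisting tiles over the 10 libraries, against 12.5 to 20.7 points in comparison tiles. The mean gap was -5.17 points (SD 1.82, n = 10 libraries). Levels near 100% leave less room for a difference. With comparison CpGs weighted to the levels of the resisting ones, the mean gap was -0.87 points (SD 0.9), and it was 0.45 points in AID-null-labelled clone 3.

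**Figure D5:**
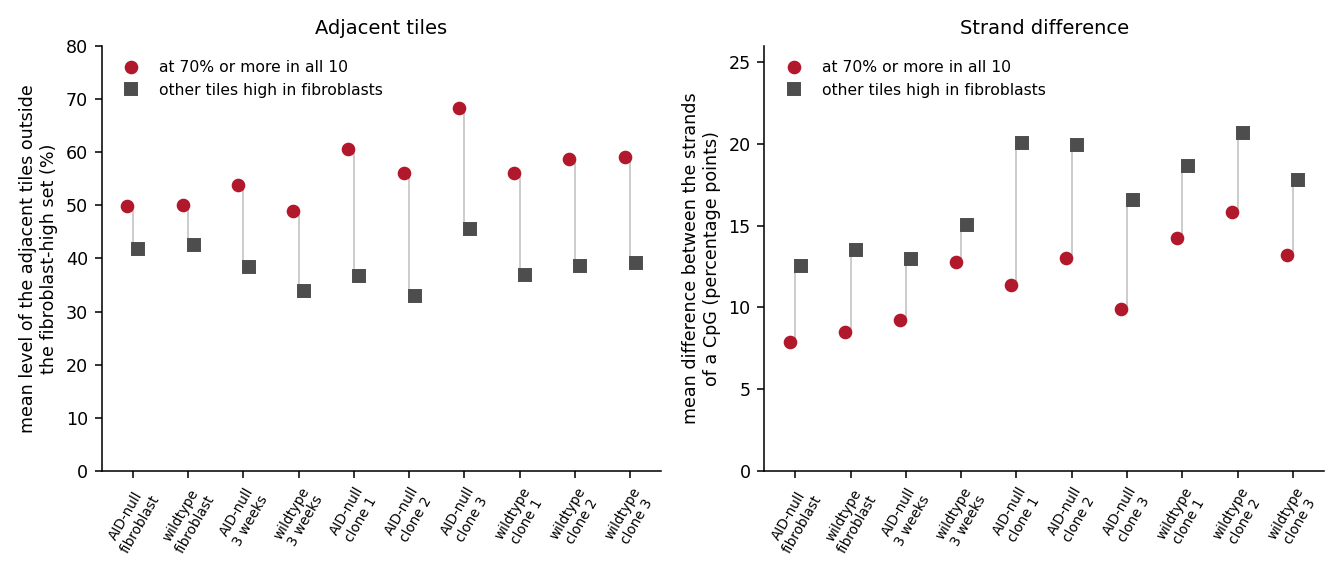
Left, mean methylation level (%) of tiles outside the fibroblast-high set that adjoin resisting tiles (red circles) or comparison tiles (grey squares), by library. Right, mean absolute difference (percentage points) between the strands of a CpG within both sets. Red lies above grey on the left and below it on the right in all 10 libraries.

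Coverage hardly differed. Reads per position in resisting tiles relative to comparison tiles were 0.921 in the 3-week culture labelled AID-null, 0.931 in the wildtype one, 0.961 to 0.996 in the clones and 1 in both fibroblast libraries after rounding. The log2 ratio averaged -0.039 (SD 0.043, n = 10 libraries), lower in 8 of 10 (exact sign-flip permutation test, p = 0.00781, adjusted 0.0104). This call did not hold when the wildtype 3-week culture was left out of the rule, where the mean was 0.027, and at a threshold of 60% the mean was 0.026 and passed in the other direction (adjusted p = 0.00781, exact test). Coverage is also the weight in the level that the rule used, so no conclusion is drawn from these coverage tests. With positions weighted equally the mean was -0.018 and the call did not hold (adjusted p = 0.406, exact test). The share of reads that were neither C nor T in resisting tiles minus that in comparison tiles averaged -0.0021 percentage points (SD 0.005, lower in 9 of 10 libraries, exact sign-flip permutation test, p = 0.234, adjusted 0.234). Of the resisting tiles 8 had over 5 times the median coverage, against 51 of the comparison tiles. The most covered, chr2:98506001-98507000, had 478 times the median coverage and read 78.1% to 93.2% over the 10 libraries. Close by, tiles chr2:98507001-98508000, chr2:98502001-98503000 and chr2:98503001-98504000 had 36.6, 32.9 and 15.8 times the median coverage. Whether the reads of these tiles come from this place alone was not tested.

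In the resisting tiles, mean levels were higher in reprogrammed libraries labelled AID-null than in wildtype ones of the same stage, in the culture and in each clone. In the clones the resisting tiles averaged 87.8% ± 3.06 (SD, n = 3) with the AID-null label and 81.6% ± 0.964 (SD, n = 3) with the wildtype label, and the AID-null-labelled mean was higher in 89.3% of the resisting tiles, 72.3% of comparison tiles and 59.3% of all tiles. AID-null-labelled clone 2 was below all 3 wildtype clones in comparison tiles, at 59.9%, and in all tiles, at 42.9%. The difference was 6.22 points in resisting tiles, 4.77 in comparison tiles and 2.62 in all tiles. In the 3-week cultures it was 8.64 points in resisting tiles, 12.1 in comparison tiles and 6.99 in all tiles, and in fibroblasts -0.50, -0.93 and -0.75 points. With 1 culture and 1 fibroblast library per genotype these have no replicate check. Xist was at 0.99 and 1.78 FPKM in the fibroblasts and culture labelled AID-null, against 456 and 149 FPKM in those labelled wildtype. Genotype and sex chromosomes therefore cannot be told apart in these differences, and the clones have no RNA. A quasi-binomial fit across all 110555 tiles, moderated with limma, called 5 tiles between the clones at an adjusted p under 0.05 and 25 points (0.00452%). The rule holds the levels of a resisting tile between 70% and 100%, so these could hardly reach 25 points and a count of 0 among them says little. Without regard to size, 0 resisting tiles and 9 tiles in all had an adjusted p under 0.05 in this limma fit. Without AID-null-labelled clone 3 it was 86 and 6447. At an unadjusted p under 0.05, 1109 resisting tiles were counted (22.1%), where 15.5% of all tiles were, and 1107 of these were higher with the AID-null label. Limma on log2 ratios gave 691 resisting tiles at an unadjusted p under 0.05 (13.7%), where 13.2% of all tiles were, so the shares were close. At an adjusted p under 0.05 it gave 0 resisting tiles. The rule used these clones, so the count is given as a description. Pairs of AID-null-labelled clones differed by 5.41 to 7.6 points per resisting tile on average (absolute difference), and pairs of wildtype clones by 6.02 to 6.38 points.

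In the clones resisting tiles were higher on average than in the 3-week cultures. The clone mean was above the culture of the same genotype by 2.75 points with the AID-null label, and was higher in 3572 resisting tiles (71.1%). With the wildtype label it was above by 5.16 points, and higher in 4277 (85.1%). Over all tiles the clone mean was higher in 51.5% with the AID-null label and in 70.2% with the wildtype label. The difference was -3 points with the AID-null label and 4.31 points with the wildtype label in comparison tiles, and 0.089 and 4.46 points in all tiles. Clones were picked and the cultures were bulk, so both stages differ in more than time.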

How the data were processed

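RRBS was deposited for 10 libraries and RNA-seq for 4. Per the file headers and the submitters' processing notes (Bismark, methylKit, build mm9), each deposited file lists read counts (coverage, at least 10) per CpG position and strand, with the percent of reads read as C and as T. The authors' RNA values are FPKM, from TopHat and Cufflinks per those notes, and were used only to describe markers and promoter genes. Aligner settings and versions are not given in the sources used here.

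Methylated and unmethylated reads were summed over 1000-base tiles with 3 or more positions in each library, and a level of 70% was required in all 10. Resisting and comparison tiles were compared over libraries by exact two-sided sign-flip permutation, with Benjamini-Hochberg adjustment over 4 measures. Clones were fitted with a quasi-binomial model, moderated with limma 3.58.1 (R 4.3.3) across 110555 tiles. The remaining steps used Python 3.11.15 with numpy 2.4.6, pandas 2.3.3, scipy 1.17.1 and numba 0.67.0. Both steps were tested on simulated data. Regions are named by a fixed rule: the 5 highest and 5 lowest members by lowest level, the 5 tiles just outside, the 5 richest in positions, the 5 most covered, the 3 longest runs, and the 5 largest rises and falls. From each of these sets the text shows some.

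Of 31396 RefSeq promoter windows on autosomes, 8650 were placed. A placement needed a single best match of CpG spacing with 5 or more listed positions and kept spacing to a neighbouring placed promoter. Of the 6870 windows placed on 12 or more positions, 99.4% kept that spacing. Coordinates were not converted between builds. The members, lists and measures were chosen with earlier results of these data known. RRBS reads carry no molecular identifiers here, so intervals cover counting error only. The RNA depth is unknown. The level of the targeted gene is not reported here.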

Additional observations from a re-analysis of the deposited data

Results flagged for a closer look

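On the X chromosome, which the rule leaves out, 221 of 1341 tiles that were high in both fibroblast libraries were at 70% or more in all 10 libraries (16.5%, 95% Wilson interval 14.6% to 18.6%), against 9.69% on the autosomes. It was listed because it is a signal in data that the comparisons did not use. These X tiles averaged 85.4% and 77.7% in the 3-week cultures labelled AID-null and wildtype, 85.2% to 91.3% in the AID-null-labelled clones and 81.4% to 83.4% in the wildtype clones, against 90.4% and 90.2% in the AID-null-labelled and wildtype fibroblasts. Xist, which is transcribed from an inactive X chromosome, was at 1.78 and 0.99 FPKM in the culture and fibroblasts labelled AID-null, against 149 and 456 FPKM in those labelled wildtype. Eif2s3y, a gene of the Y chromosome, was at 274 and 184 FPKM with the AID-null label and listed at 0 with the wildtype label. Genotype and sex chromosomes therefore cannot be told apart in these values, and no test was made.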

How the results depend on the processing

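The number of resisting tiles followed the settings: 2318 with at least 5 positions per tile, 20689 at a threshold of 60%, 351 at 80%, 20989 without the wildtype libraries and 9169 without the wildtype 3-week culture, and 5052 to 6014 when 1 clone was left out. Their share of fibroblast-high tiles was 9.36% with at least 5 positions, 8.69% with positions weighted equally, 33.9% at 60%, 0.93% at 80%, 10.1% without the libraries labelled AID-null, 37% without the wildtype ones and 17.5% without the wildtype 3-week culture. It was 9.72% to 11.6% when 1 clone was left out. With positions weighted equally 4459 tiles met the rule, 3625 of them in the main set. The median position count was 7.15 with at least 5 positions, 5.2 at 80%, 4 with positions listed in all 10 libraries and 4.8 without the wildtype libraries, against 7.7, 5.2, 4 and 5.2 in comparison tiles. The mean log2 coverage ratio was -0.018 with positions weighted equally (adjusted p = 0.406, exact test), 0.026 at 60% (adjusted p = 0.00781, past the threshold in the other direction), -0.062 without the libraries labelled AID-null, 0.011 without the wildtype ones and 0.027 without the wildtype 3-week culture, so its direction turned in 3 settings. The difference in reads neither C nor T was 0.00012 points with at least 5 positions, -0.0031 at 60%, 0.00295 at 80% and -0.0031 without the wildtype 3-week culture. It passed the exact test at 60% (adjusted p = 0.00781) and without that culture (0.0417). The strand difference was -4.26 points without the libraries labelled AID-null and -5.77 without the wildtype ones, and the difference in adjacent tiles 18 and 20.9 points. With the 5 or 4 libraries left in these fits, p cannot go below 0.0625 or 0.125. Between clones, the fit with clone number as a replicate block called 0 tiles, limma on log2 ratios 0 and the fit without a trend 1. Leaving out 1 clone gave 0 to 1968 calls, and the 1968 came without AID-null-labelled clone 3. Resisting tiles could hardly reach the 25 points of a call. At an adjusted p under 0.05 in these limma fits there were 86 resisting tiles without AID-null-labelled clone 3, 1 without a trend and 0 in the other settings. Same-numbered clones had correlations of deviations of -0.02 to 0.056, so the numbers were not used as pairs. The causes of these changes were not tested. The median distance exceeded that of comparison tiles by 80 kb, and by 43, 159 and 44 kb at 60%, at 80% and without the wildtype libraries. Settings added after the data were seen were the omission of a 3-week culture, the distances and the level-matched strands.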
